A study of Homo sapiens with 6 samples.

Results

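The genes of the mitochondrial genome were taken as every gene that the deposited counts table places on chrM. They numbered 37 of the 26899 genes listed, and comprised 13 mRNAs, 2 rRNAs and 22 tRNAs. The counts came from RNA-seq of HK-2, a papillomavirus-immortalised cell line from the proximal tubule of a human kidney. It comprised 6 libraries, of which 3 were labelled control and 3 were labelled ANXA2 knockdown. The design asked how the transcriptome differs once ANXA2, which encodes the membrane-binding protein annexin A2, is knocked down. The titles name the controls wild type and the sample descriptions name them shCtrl, so the labels do not settle whether the controls carried a hairpin. All cells were grown in the same serum-containing medium, and plasmids were delivered with a lipid reagent. RNA was selected on oligo(dT) beads before directional library preparation. No label says whether the replicates were separate cultures, so p-values measure only the spread between these samples, which may be technical.

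The libraries held between 24231267 and 34561675 counted reads. ANXA2 itself was at 1658, 1461 and 1675 counts per 1000000 reads (CPM) in the libraries labelled control and at 1538, 1561 and 1519 CPM in those labelled knockdown. Its log2 fold change was -0.05 (SE 0.075, adjusted p = 0.848 in the edgeR quasi-likelihood test with Benjamini-Hochberg adjustment), and its 95% interval ran from -0.22 to 0.12. The targeted gene therefore did not separate the labels, and the groups are called by their labels throughout. The kidney tubule markers PAX8, PAX2, LHX1, CDH6, CDH16, GGT1 and MME were at 1 CPM or more in every library. LRP2, CUBN, AQP1, SLC5A2, SLC34A1, ANPEP and HNF4A, which mark mature proximal tubule, did not reach that level in every library. Markers of lung epithelium, fibroblasts and endothelium reached it for 1 of 6, 1 of 5 and 0 of 3 genes, and VWF and SFTPC had no reads in any library. The leukocyte markers PTPRC and CD3E had no reads either, whereas the macrophage marker CD68 reached 1 CPM in every library. The summed lung list was at 2.59 to 6.64 CPM under the control label and at 7.78 to 9.15 CPM under the knockdown label, without overlap, and its part in the results was not tested. NAPSA was the 1 lung gene that reached 1 CPM in every library, and 3 of the 6 had no reads in any. The sum therefore does not stand for the list as a whole. Fibroblast markers summed to 5.77 to 11.1 CPM against 4.82 to 9.8 CPM.

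The human mitochondrial genome is a small circle that encodes core subunits of the respiratory chain and ATP synthase, along with the rRNAs and tRNAs that translate them. Both strands are transcribed by the polymerase POLRMT into long precursors, which are cut at the tRNAs that lie between most of the other genes. Most genes, including both rRNAs, are read from the heavy-strand promoter region, whereas MT-ND6 and a minority of the tRNAs are read in the opposite direction. The members therefore share precursors and are not independent of each other. Kidney proximal tubule cells are known for their dense mitochondria.

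The layout of the genome bears on what was counted, so a few stretches are shown from GENCODE release 44 on GRCh38, whose chrM has 16569 bases and in which all 37 gene identifiers were found. The first stretch, at chrM:3210-3326 on the plus strand, runs from the end of MT-RNR2 (large rRNA) through the leucine tRNA MT-TL1, in capitals, into MT-ND1. No base lies between the rRNA and the tRNA.
MT-RNR2/MT-TL1/MT-ND1: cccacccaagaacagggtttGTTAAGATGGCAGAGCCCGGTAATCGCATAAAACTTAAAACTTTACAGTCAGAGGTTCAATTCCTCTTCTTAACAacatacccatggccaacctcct

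As annotated, 6 of the 13 mRNA genes end within a stop codon, which the poly(A) tail then completes. The tail is also what the oligo(dT) beads bind. The last 24 annotated bases of 4 mRNA genes are shown in the direction of transcription, with the stop codon or its part in capitals. Where each mature mRNA ends, and whether that of MT-ND6 carries a tail, was not tested. MT-ND1 (chrM:4239-4262) and MT-ND2 (chrM:5488-5511) end within the stop codon, and MT-ND6 (chrM:14149-14172) lies on the minus strand. MT-ATP6 (chrM:9184-9207) is annotated with a full stop codon, whose last base is also the first base of MT-CO3 (chrM:9207-9990). Which of these RNAs keeps that base was not tested.
MT-ND1: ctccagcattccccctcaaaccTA
MT-ND2: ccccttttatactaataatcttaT
MT-ATP6: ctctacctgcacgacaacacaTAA
MT-ND6: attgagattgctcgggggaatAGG

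MT-ATP8 and MT-ATP6 share 46 bases, shown in capitals within chrM:8512-8587, and reads within them belong to both genes. MT-ND4L and MT-ND4 share 7 bases, shown in capitals within chrM:10745-10781. The sources used here do not give how reads in such overlaps were assigned.
MT-ATP8/MT-ATP6: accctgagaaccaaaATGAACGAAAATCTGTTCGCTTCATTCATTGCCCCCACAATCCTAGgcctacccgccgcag
MT-ND4L/MT-ND4: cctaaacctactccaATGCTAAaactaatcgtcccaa

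Mitochondrial genes as a whole took a smaller share of the reads in every library labelled knockdown. They held 6.496%, 6.009% and 6.172% of counted reads in the libraries labelled control and 5.579%, 5.603% and 5.258% in those labelled knockdown. The means were 6.225% ± 0.248 (SD, n = 3) and 5.48% ± 0.192 (SD, n = 3), a share 12% lower. The groups did not overlap, and the exact two-sided permutation test gave p = 0.1, which is the smallest value that 3 against 3 libraries allow. Counting error contributed at most 0.00981 percentage points on either side of a library's share (95% binomial interval), and that interval covers counting error only. In bulk RNA, a lower share can come from less mitochondrial RNA per cell, more of other RNA, or a different mix of cells. It can also come from differences in the oligo(dT) selection or library preparation, and these cannot be told apart.

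**Figure D1:**
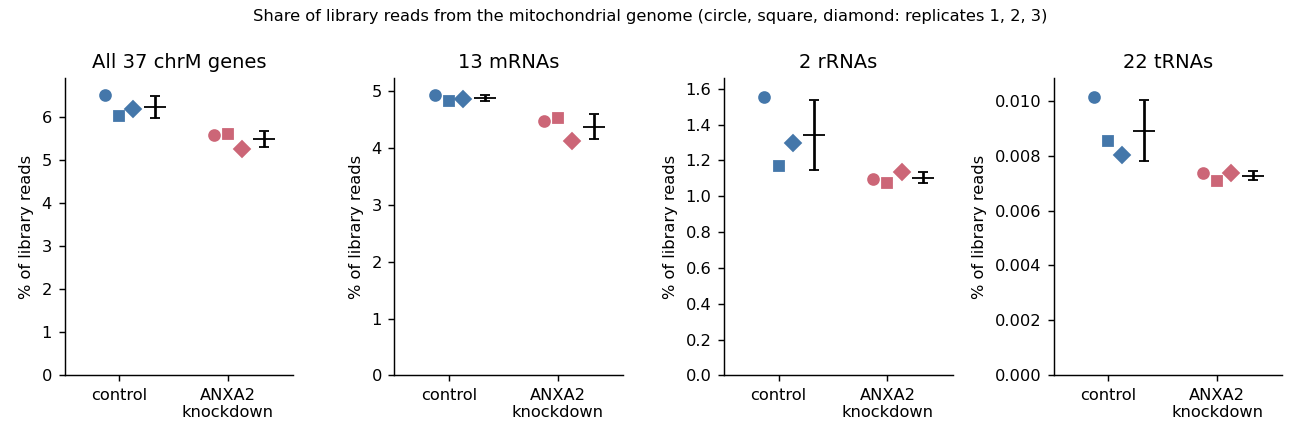
Share of all counted reads (percent, linear axes) held by the 37 chrM genes and by their mRNAs, rRNAs and tRNAs, for 3 libraries labelled control and 3 labelled knockdown. Circle, square and diamond mark replicates 1, 2 and 3, and the black dash and bar give mean ± SD. In each panel the 3 knockdown points lie below the 3 control points.

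Each class of RNA had the same order. The 13 mRNAs took 4.93%, 4.83% and 4.865% of reads under the control label and 4.476%, 4.519% and 4.114% under the knockdown label, a mean 10.4% lower. The 2 rRNAs took 1.555%, 1.171% and 1.298% against 1.096%, 1.077% and 1.137%, a mean 17.7% lower. The 22 tRNAs took 101.4, 85.47 and 80.14 reads per 1000000 counted reads (RPM) against 73.64, 70.75 and 73.79, a mean 18.3% lower. None of the 3 classes overlapped between the labels, with an exact permutation p of 0.1 for each. With any 1 library left out, the difference in the total share lay between -0.85 and -0.61 percentage points. The mRNAs made up 75.9% to 80.66% of the chrM reads in a library, and the tRNAs 0.126% to 0.156%.

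Gene by gene, no member passed the test after adjustment, although nearly all estimates were negative. A low-count filter left 30 of the 37 members, and 29 of these had a negative log2 fold change, whereas 51.0% of the 15299 genes tested did. No member had an adjusted p under 0.05 in the edgeR quasi-likelihood test with Benjamini-Hochberg adjustment, the smallest being 0.599, and over all genes 0% passed. DESeq2 and limma also called 0 members, while edgeR without the filter called 1 (MT-RNR2, adjusted p = 0.01). Among the 26899 genes listed, edgeR without the filter called 165 in all, DESeq2 31 and limma 0. At an unadjusted p under 0.05, 7 members were lower (MT-RNR2, MT-ND2, MT-ATP8, MT-CO3, MT-TI, MT-ND5 and MT-TF) and 0 higher, beside 4.32% and 3.86% of all genes. That count was 4 with DESeq2, 3 without control replicate 1, 3 without control replicate 3, 3 without knockdown replicate 1 and 2 without knockdown replicate 3. In 12 members the labelled groups did not overlap, with the knockdown label lower in each, beside 7.70% of all genes. The opposite order was seen in 0 members and in 7.94% of all genes. The median log2 fold change was -0.21 over the members tested and -0.01 over all genes, and by class it was -0.13 for mRNAs, -0.20 for rRNAs and -0.34 for tRNAs.

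**Figure D2:**
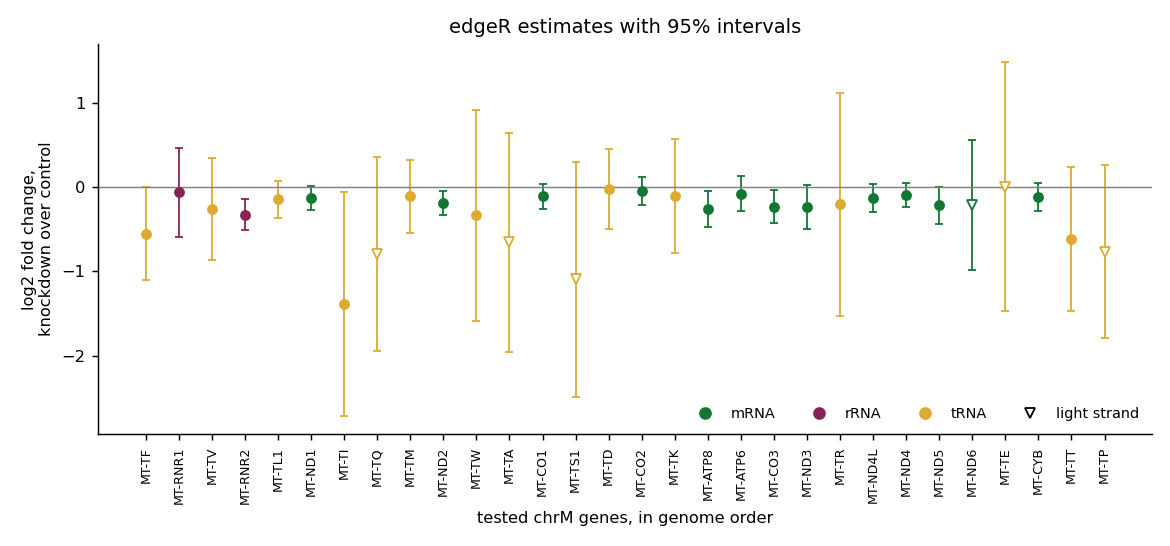
Log2 fold change, knockdown over control label, for the 30 chrM genes tested, in genome order, as points with 95% intervals from the edgeR quasi-likelihood fit. Colour gives the RNA class and open triangles are light-strand genes. All points but that of MT-TE (0.00) lie below 0, and the intervals of the tRNA genes with few reads are the widest.

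The rRNAs gave unlike estimates. MT-RNR2 (ENSG00000210082.2, chrM:1671-3229), the large rRNA of the mitochondrial ribosome, was at 11240, 9213 and 9947 CPM under the control label and at 8056, 8683 and 7500 CPM under the knockdown label. Every library labelled knockdown lay below every library labelled control. The log2 fold change was -0.33 (SE 0.0836), or 20.3% lower, with adjusted p = 0.599 in the edgeR quasi-likelihood test. MT-RNR1 (ENSG00000211459.2, chrM:648-1601), the small rRNA, was at 4204, 2260 and 3096 CPM against 3042, 2237 and 3868 CPM. Its groups overlapped widely, and its log2 fold change of -0.06 (SE 0.233) turned to 0.19 without control replicate 1 and to 0.12 without knockdown replicate 2. Mitochondrial rRNAs carry only short tails, and how well either passed the oligo(dT) selection was not tested. MT-RNR2 gave 2.674, 4.077 and 3.213 reads per MT-RNR1 read under the control label and 2.648, 3.882 and 1.939 under the knockdown label, with an exact permutation p of 0.4 on the log2 scale.

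**Figure D3:**
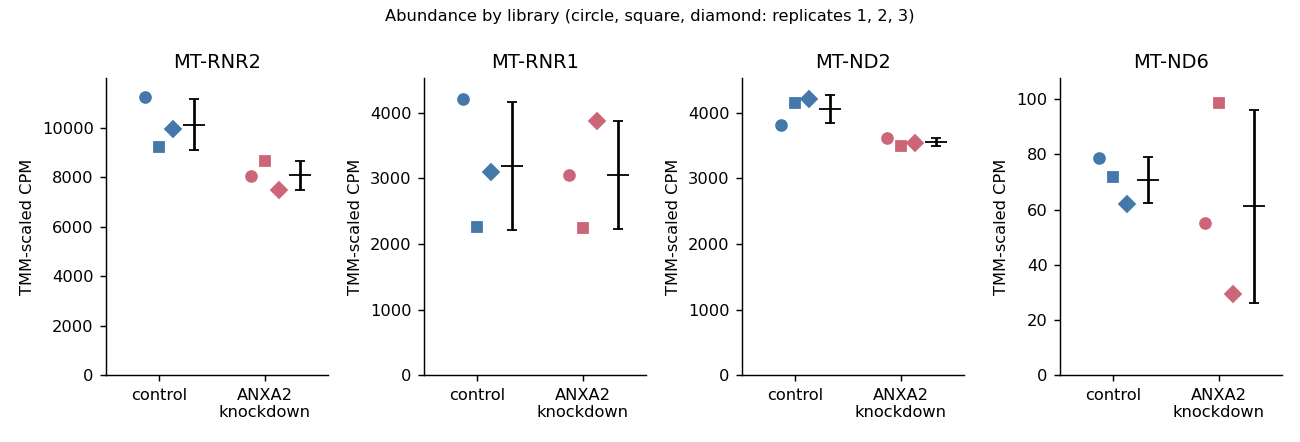
Level of MT-RNR2, MT-RNR1, MT-ND2 and MT-ND6 in each library, in TMM-scaled CPM on linear axes. Circle, square and diamond mark replicates 1, 2 and 3, and dash and bar give mean ± SD. The labels separate in MT-RNR2 and MT-ND2 and overlap in MT-RNR1 and MT-ND6, where knockdown replicates 2 and 3 hold the highest and the lowest value.

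Complex I, which passes electrons from NADH to ubiquinone, is encoded here by 7 mRNAs. MT-ND2 (chrM:4470-5511) was at 3819, 4143 and 4215 CPM under the control label and at 3616, 3496 and 3542 CPM under the knockdown label, with no overlap. Its log2 fold change was -0.19 (SE 0.0624, adjusted p = 0.599 in edgeR). MT-ND5 (chrM:12337-14148) was at 1960, 2159 and 2056 CPM against 1879, 1905 and 1520 CPM. These groups did not overlap either, and the log2 fold change was -0.22 (SE 0.095, adjusted p = 0.608 in edgeR), or -0.12 without knockdown replicate 3. MT-ND1, MT-ND4L and MT-ND4, also without overlap, had estimates of -0.13, -0.13 and -0.09. In MT-ND4 the margin was narrow, at 5247 CPM in control replicate 3 against 5230 CPM in knockdown replicate 2. MT-ND4 came to -0.050 without knockdown replicate 3, and MT-ND1 to -0.083 without control replicate 2. MT-ND3 had an estimate of -0.24 (SE 0.116) with overlapping groups, or -0.14 without control replicate 1.

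MT-ND6, the mRNA transcribed opposite to the others, was the most variable of the 13. It was at 78.55, 71.62 and 61.96 CPM under the control label and at 55.12, 98.7 and 29.58 CPM under the knockdown label. Knockdown replicates 2 and 3 were the highest and the lowest of the 6 libraries, from 3259 and 854 reads. The log2 fold change was -0.21 (SE 0.342) and turned to 0.12 without knockdown replicate 3. As a share of mRNA reads MT-ND6 varied 2.99-fold between libraries, while the other 12 varied between 1.06-fold (MT-CYB) and 1.36-fold (MT-ND3). The heavy-strand precursor runs across the same stretch in antisense, and the sources used here do not give the strand setting of the counting, so reads of both directions cannot be told apart.

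Complex IV, cytochrome c oxidase, passes electrons to oxygen and takes its catalytic subunits from MT-CO1, MT-CO2 and MT-CO3. MT-CO3 (chrM:9207-9990) was at 6184, 5069 and 6028 CPM under the control label and at 4972, 5211 and 4534 CPM under the knockdown label. Knockdown replicate 2 lay above control replicate 2, so the groups overlapped, with a log2 fold change of -0.23 (SE 0.0875, adjusted p = 0.605 in edgeR). MT-CO1 (chrM:5904-7445) was at 9847, 9996 and 9975 CPM against 9400, 9847 and 8341 CPM, and its estimate was -0.11 (SE 0.0669), or -0.045 without knockdown replicate 3. Control replicate 1 and knockdown replicate 2 of MT-CO1 were equal to within rounding, so MT-CO1 counts among the 12 members without overlap by less than the last digit shown. MT-CO2 (chrM:7586-8269) was at 5938, 5140 and 5680 CPM against 5583, 5625 and 5050 CPM, an estimate of -0.04 (SE 0.0734) with overlap. It turned to 0.0040 without control replicate 1 and to 0.0066 without knockdown replicate 3.

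The ATP synthase subunits MT-ATP8 and MT-ATP6, which lie on 1 shared mRNA, gave unlike estimates. MT-ATP8 (chrM:8366-8572) was at 1610, 1285 and 1482 CPM under the control label and at 1228, 1278 and 1144 CPM under the knockdown label, with no overlap. Its log2 fold change was -0.26 (SE 0.0939, adjusted p = 0.599 in edgeR). MT-ATP6 (chrM:8527-9207) was at 3609, 3234 and 4125 CPM against 3513, 3637 and 3240 CPM. Its groups overlapped, and the estimate was -0.08 (SE 0.0926), or 0.02 without control replicate 3. The difference between these estimates was not tested. MT-CYB, the cytochrome b subunit of complex III, had an estimate of -0.12 (SE 0.0737), from 3688, 3378 and 3542 CPM against 3400, 3396 and 2972 CPM. It came to -0.056 without knockdown replicate 3.

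Within the mRNA pool the share of each respiratory complex overlapped between the labels. Complex I mRNAs made up 38.17% ± 2.13 of mRNA reads under the control label and 37.76% ± 0.927 under the knockdown label (SD, n = 3 each). Complex IV made up 43.97% ± 1.14 and 44.25% ± 0.799, complex V 10.56% ± 0.966 and 10.61% ± 0.138, and complex III 7.305% ± 0.203 and 7.378% ± 0.14. The exact permutation p was 0.8 for each of these 4 shares, before and after adjustment over them. Among single mRNAs, MT-CO2 alone did not overlap, at 12.12%, 10.86% and 11.62% against 12.32%, 12.27% and 12.28% of mRNA reads, and it was singled out after its values were seen.

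Ratios taken within a library need no scaling between libraries, and 4 were compared. The rRNAs gave between 0.2383 and 0.3154 reads per mRNA read, with a difference of -0.11 on the log2 scale (exact permutation p = 0.6). That difference was -0.0095 without control replicate 1, and ran down to -0.20 without control replicate 2. MT-RNR2 to MT-RNR1 differed by -0.27 on that scale, by -0.029 without knockdown replicate 3, by -0.11 without control replicate 2, by -0.42 without control replicate 1 and by -0.53 without knockdown replicate 2. MT-ND6 gave between 0.0007197 and 0.002158 reads per read of the other 12 mRNAs, a difference of -0.24 (exact permutation p = 0.7). MT-ND5 and MT-CYB, which lie far from the heavy-strand promoters, gave between 0.5644 and 0.6659 reads per read of the nearer MT-ND1 and MT-ND2. That difference was 0.00 (exact permutation p = 1.0). After adjustment over the 4 ratios no p was below 0.933 in these exact tests.

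The order of levels, compared per length as deposited FPKM (fragments scaled for gene length and library depth), spanned a wide range. MT-CO2 was highest at a mean of 7591 FPKM over the 6 libraries, followed by MT-CO3 at 6420, MT-ATP8 at 6100, MT-CO1 at 5857 and MT-RNR2 at 5515 FPKM. MT-CO2 exceeded MT-CO3 in 6 of 6 libraries, as MT-CO3 did MT-ATP8, whereas MT-ATP8 exceeded MT-CO1 in only 3 of 6. MT-ATP6 (4933), MT-ND1 (4684), MT-ND4 (3590), MT-ND2 (3448), MT-ND3 (3172), MT-RNR1 (3084) and MT-CYB (2809 FPKM) came next, and MT-ND3 and MT-RNR1 were in this order in 3 of 6. Other neighbours in that order kept it in 4 of 6 (MT-RNR1 and MT-CYB), 5 of 6 (MT-CO1 and MT-RNR2, MT-ATP6 and MT-ND1, MT-ND4 and MT-ND2, MT-ND2 and MT-ND3) or all 6 libraries. MT-ND4L was at 1968 FPKM and MT-ND5 at 996.8 FPKM, each above the next in 6 of 6. MT-ND6 was the lowest mRNA at 118.4 FPKM, below the means of the tRNAs MT-TL1 (581.6) and MT-TF (138.8 FPKM). MT-TF exceeded it in 4 of 6 libraries. The leucine tRNA MT-TL2 had the lowest mean, at 1.62 FPKM, and the next, the tyrosine tRNA MT-TY at 2.262 FPKM, exceeded it in only 2 of 6 libraries.

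**Figure D4:**
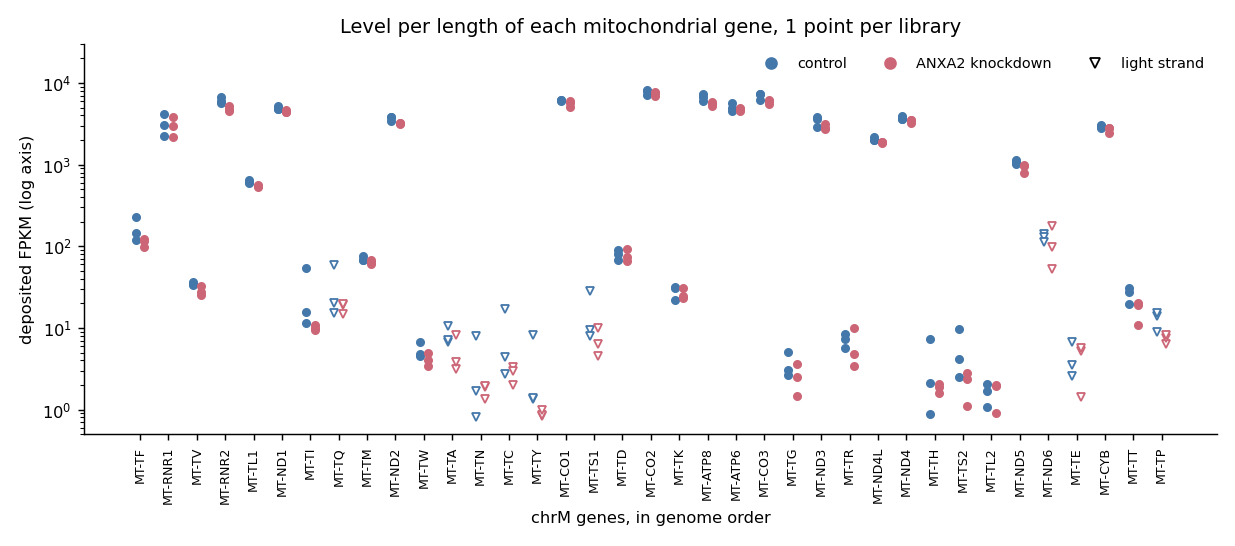
Deposited FPKM (log axis) of the 37 chrM genes in each of the 6 libraries, in genome order, 1 point per library. Blue is the control label, red the knockdown label, and open triangles are light-strand genes. The mRNAs other than MT-ND6 and both rRNAs lie in the upper part, and every tRNA lies below MT-ND5.

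Mature tRNAs carry no poly(A) tail and are shorter than usual RNA-seq fragments, and tRNA reads were few. MT-TL1 alone gave 47.31% to 61.42% of them. It was at 47.68, 50.02 and 47.86 CPM under the control label and at 45.04, 44.06 and 42.53 CPM under the knockdown label. The groups did not overlap, and the log2 fold change was -0.15 (SE 0.0962). It lies next to MT-RNR2 in the junction shown above, and the sources used here do not give how reads spanning both were assigned.

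Of 22 tRNAs, 15 were tested, and the other 7 (MT-TN, MT-TC, MT-TY, MT-TG, MT-TH, MT-TS2 and MT-TL2) had 2 to 29 reads in a library. Among those tested 14 estimates were negative, and 4 members (MT-TL1, MT-TV, MT-TI and MT-TP) did not overlap between the labels, each lower under the knockdown label, beside 7.70% of all genes. The margin was narrow in MT-TV, at 2.44 CPM in control replicate 3 (76 reads) against 2.432 CPM in knockdown replicate 1 (83 reads). It was a few reads in MT-TP and MT-TI. Control replicate 3 had 20 and 26 reads of these, and the libraries labelled knockdown had 16 to 18 and 23 to 24. MT-TI, for isoleucine, was at 3.935, 1.132 and 0.8347 CPM under the control label and at 0.7033, 0.7268 and 0.7966 CPM under the knockdown label. Its log2 fold change of -1.39 (SE 0.591, adjusted p = 0.608 in edgeR) came to -0.40 without control replicate 1. MT-TF, for phenylalanine, was at 17.34, 8.933 and 11.01 CPM against 8.733, 7.42 and 9.213 CPM. Its log2 fold change of -0.55 (SE 0.244, adjusted p = 0.608 in edgeR) came to -0.24 without control replicate 1. Estimates for the others tested were -1.09 (MT-TS1), -0.79 (MT-TQ), -0.77 (MT-TP), -0.66 (MT-TA), -0.62 (MT-TT), -0.34 (MT-TW), -0.27 (MT-TV), -0.21 (MT-TR), -0.11 (MT-TM), -0.11 (MT-TK), -0.02 (MT-TD) and 0.00 (MT-TE). Without control replicate 1, MT-TS1 came to -0.30, MT-TQ to 0.046, MT-TA to -0.42 and MT-TW to -0.13. MT-TA also moved to -0.41 without knockdown replicate 1 and to -1.19 without knockdown replicate 2, and MT-TT to -0.38 without knockdown replicate 3.

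Control replicate 1 stood apart in the tRNAs. It held the highest share of library reads for 15 of the 22, among them 7 of the 8 on the light strand, meaning those read in the direction of MT-ND6. Over all genes tested, 20.1% were highest in that library. That figure leaves out genes with few reads, whereas the 22 include the 7 tRNAs that were not tested. Of these 7, MT-TN, MT-TC and MT-TY lie on the light strand. Light-strand tRNAs together were at 11.35, 4.464 and 3.547 RPM under the control label and at 3.096, 3.763 and 3.499 under the knockdown label. Control replicate 1 was far above the other 5 libraries, and the labels overlapped, with an exact permutation p of 0.2. Heavy-strand tRNAs were at 90.09, 81.0 and 76.59 RPM against 70.54, 66.98 and 70.29. They did not overlap, with an exact permutation p of 0.1. Without control replicate 1 the difference in the share of all tRNAs was -0.0010 percentage points, against -0.0016 with it. The rRNA share was also highest in that library, and the difference in rRNA share was -0.13 percentage points without it, against -0.24 with it.

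**Figure D5:**
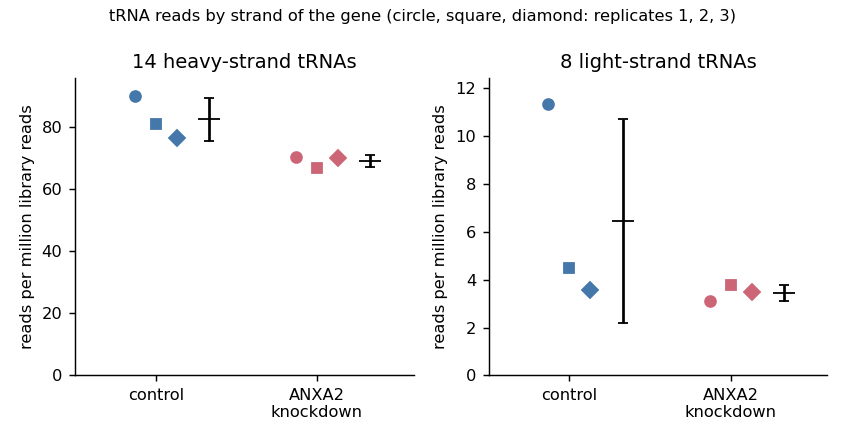
Reads per 1000000 counted reads (RPM) for the 14 heavy-strand and the 8 light-strand tRNAs (linear axes), by library, with circle, square and diamond for replicates 1, 2 and 3 and dash and bar for mean ± SD over 3 libraries of a label. In the light-strand panel control replicate 1 (circle, 11.35) stands above the other 5 libraries, which lie between 3.096 and 4.464.

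Nuclear copies of mitochondrial genes can take reads that belong to chrM, or give reads to it. Searched by a pattern of gene symbols, the counts table listed 21 such genes, which together held 0.099% to 0.135% of reads. Of these, 4 had a mean of at least 10 reads per library and were tested. Copies under other kinds of name would not be included. MTATP6P1 (chr1:633696-634376), a copy of MT-ATP6, held 25759, 29893 and 39942 reads under the control label and 38197, 36809 and 31518 under the knockdown label. That was 28.28 to 33.69 reads for every 100 of MT-ATP6, with 29.54 ± 1.42 under the control label and 32.07 ± 1.53 under the knockdown label (SD, n = 3 each, exact permutation p = 0.2). Its log2 fold change was 0.03, with adjusted p = 0.95 in edgeR, and lay between -0.075 and 0.17 with any 1 library left out. The copy and MT-ATP6 are 98.53% identical, with 10 differences over 681 bases, and 11.86% of the 100-base windows of the copy also occur in MT-ATP6. A stretch of 90 bases from chrM:8624-8713 and chr1:633793-633882 is shown with the 3 differences in capitals (C129T, A151C and A175G, with the base of MT-ATP6 first and positions counted from its first base).
MT-ATP6: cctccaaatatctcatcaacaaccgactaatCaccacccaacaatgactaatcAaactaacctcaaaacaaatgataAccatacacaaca
MTATP6P1: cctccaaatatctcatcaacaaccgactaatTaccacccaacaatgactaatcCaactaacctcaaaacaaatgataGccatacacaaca

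MTND2P28 (chr1:629640-630683), a copy of MT-ND2 that is 98.37% identical over 1042 bases, held 1467, 1775 and 2091 reads under the control label and 1439, 1494 and 1426 under the knockdown label. Scaled for depth the groups did not overlap, and the log2 fold change was -0.41 (adjusted p = 0.599 in edgeR). MTND1P23 and MTND4P12 had estimates of -0.49 and -0.50 from 9 to 43 reads per library. The sources used here do not give how reads that match both places were assigned, so levels of the 4 copies and of their chrM partners are uncertain. With the reads of MTATP6P1 and MTND2P28 added to their partners, the MT-ATP6 estimate was -0.05 in place of -0.08. Reads of MTND1P23 and MTND4P12 were not added in that fit.

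Nuclear genes that make and handle mitochondrial RNA had estimates on both sides of 0. Of 59 names on a list, chiefly of transcription, processing, modification and decay factors, 53 were found and tested. Some names are synonyms of the same gene, such as PRORP and KIAA0391. POLG, POLG2 and some others on that list copy or maintain mitochondrial DNA, and TMEM70 is an assembly factor of ATP synthase. Estimates were negative for 24 and positive for 29, with a median log2 fold change of 0.01 beside -0.01 over all genes. No member had an adjusted p under 0.05 in edgeR, nor in DESeq2 or limma, and at an unadjusted p under 0.05 3 were lower and 0 higher. These are to be set beside 4.32% and 3.86% of all genes. The groups did not overlap in 8 lower and 2 higher members of the 53, beside 7.70% and 7.94% of all genes.

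TFAM, which packages mitochondrial DNA and starts transcription, was at 54.69, 52.19 and 45.68 CPM under the control label and at 38.3, 33.53 and 43.61 CPM under the knockdown label. The groups did not overlap, and the log2 fold change was -0.40 (SE 0.129, adjusted p = 0.599 in edgeR). With any 1 library left out it lay between -0.50 and -0.31. FASTKD2, an RNA-binding protein needed for the large mitochondrial ribosome subunit, had an estimate of -0.28 (adjusted p = 0.605 in edgeR). MTERF2, of the family of mitochondrial termination factors, had one of -0.63 (adjusted p = 0.606 in edgeR) from 2.667 to 6.928 CPM.

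The other factors chosen for naming had overlapping groups. The polymerase POLRMT had an estimate of 0.14 (SE 0.131), and the transcription factor TFB2M and the elongation factor TEFM had 0.02 and 0.18. LRPPRC and SLIRP, which together stabilise the mRNAs, had -0.14 and 0.08. PNPT1 and SUPV3L1, the degradosome that removes mitochondrial RNA, had -0.04 and 0.01. The poly(A) polymerase MTPAP had 0.08, and ELAC2, which cuts the tRNAs at their ends, had 0.06. Adjusted p-values of these 9 genes in edgeR lay between 0.765 and 0.979. POLRMT, TEFM and ELAC2 stayed positive with any 1 library left out, whereas TFB2M, LRPPRC, SLIRP, PNPT1, SUPV3L1 and MTPAP took either sign.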

How the data were processed

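Poly(A)-selected RNA of 6 HK-2 libraries was examined. The authors deposited raw counts per gene for 26899 genes, and they also deposited FPKM values for 26803 genes. The submitters' processing notes name bcl2fastq, TopHat2, edgeR and GRCh38. The sources used here do not give the counting program, annotation release, strand setting or handling of multiply matching reads. For chrM genes the FPKM values were the counts divided by length and by 1.051 to 1.07 times the library total, so they add no independent measurement.

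Members were chrM genes. They, the lists and the naming rule (all mRNAs, rRNAs and tested tRNAs; machinery genes preset or at unadjusted p under 0.05 without overlap; nuclear copies with a mean of at least 10 reads) were chosen with earlier results of these data known. Any other gene was named after its values were seen. Counts of 15299 genes past the default edgeR filter (minimum count 10, total 15) were fitted over all 6 libraries in edgeR 4.0.16 (R 4.3.3) with TMM scaling (factors 0.9868 to 1.021) and no covariate, and tested with the quasi-likelihood test. P-values were adjusted by Benjamini-Hochberg over all genes, with a threshold of 0.05. CPM values are reads per 1000000 reads of tested genes times the TMM factor. Shares and ratios were compared by exact two-sided permutation tests in scipy 1.17.1, for which 0.1 is the smallest p. Alternatives were other scalings, no filter, DESeq2 1.42.0, limma 3.58.1 on log2(FPKM + 1), a replicate block, other denominators, leaving out each library, and nuclear copies added. Scripts were tested on simulated data. Replicate numbers were not used to pair samples in the main fit, since no label says that they mark a shared batch. Deviations of log2 CPM from the group means correlated at -0.0616, 0.118 and -0.203 between same-numbered libraries. Between libraries of different number they correlated at -0.226 to 0.217, so these values cannot decide whether the numbers mark pairs. Some marker genes are not reported here. Dates and batches are not in the labels. The paper supplied with the series describes another experiment, and only its style was used.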

Additional observations from a re-analysis of the deposited data

How the results depend on the processing

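Without the low-count filter edgeR called 1 member (MT-RNR2) and 165 genes among the 26899 listed, and DESeq2 called 0 members and 31 genes among them. Leaving out 1 library gave 0 to 4 genes (4 without knockdown replicate 2) and 0 members, and 2 to 7 members at an unadjusted p under 0.05, for which DESeq2 gave 4. The cause of these changes was not tested. Of 420 recomputed member fold changes, 399 kept direction and side of the threshold and 20 changed sign. With 1 library left out, log2 fold changes ran from -0.27 to 0.19 for MT-RNR1, -1.13 to 0.046 for MT-TQ, -0.16 to 0.077 for MT-TD, -0.098 to 0.0066 for MT-CO2, -0.16 to 0.019 for MT-ATP6, -0.75 to 0.087 for MT-TR, -0.73 to 0.12 for MT-ND6 and -0.31 to 0.47 for MT-TE. MT-TE also became -0.020 with library size alone, -0.0078 without the filter, -0.012 with DESeq2 and -0.097 with limma. With a replicate block it was -0.081, and the replicate block called 0 members and 0 genes and changed no other call. In the shares under that block the smallest p that 3 pairs allow is 0.25, by an exact sign-flip test.

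Of 102 recomputed shares and ratios, 91 kept their direction. With 1 library left out, the light- to heavy-strand mRNA ratio differed by -0.64 to 0.15 (log2) and the distal to proximal ratio by -0.055 to 0.065, or 0.0062 from FPKM. Shares of mRNA reads differed by -1.03 to 0.82 percentage points for complex I, -0.010 to 0.19 for complex III, -0.36 to 0.72 for complex IV and -0.45 to 0.51 for complex V, which was -0.43 from FPKM. The 4 library shares were lower under the knockdown label in every alternative, by -0.58 to -0.38 points for mRNAs, -0.32 to -0.13 for rRNAs and -0.0021 to -0.0010 for tRNAs with 1 library left out, where the smallest p (0.2, exact permutation) was reached each time. Adding nuclear copies was chosen after seeing the data. The 7 tRNAs with 2 to 29 reads in a library were removed by the low-count filter, and no test of them is reported.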
